A study of Mus musculus with 34 samples.

Results

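The cohesin subunit SMC1 was mapped by ChIP-seq in CTCF-KO dendritic cells before and after lipopolysaccharide (LPS), which gave 1 peak list for each state, 29965 peaks in KO and 17241 in KOLPS. These are 2 of 30 peak lists and 47206 of 1393623 peaks in the series. A KO peak that shared at least 1 bp with a KOLPS peak was called shared, and the rest were called KO-only; KOLPS peaks were divided the same way. The classes held 16683 KO-only peaks, 13282 shared KO peaks, 13596 shared KOLPS peaks and 3645 KOLPS-only peaks. The cells were bone marrow-derived dendritic cells (BMDCs) of C57BL/6 mice aged 8 weeks, selected for CD11c, grown for 6 days in GM-CSF, a cytokine that turns bone marrow precursors into dendritic cells. KO cells carried loxP-flanked Ctcf alleles and a tamoxifen-inducible Cre recombinase expressed from the Rosa26 locus, and every culture, KO and WT, received 4-OH tamoxifen on its first day. The CTCF-WT cells used for comparison carried the same Cre without the floxed alleles. KOLPS and WTLPS cells received LPS at 100 ng/ml for 3 h, and KO and WT cells received none.

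The lists fitted their labels in most respects. All 12 dendritic and myeloid marker genes (Itgax, Cd74, H2-Ab1, Spi1 and others) had a peak of H3K4me3, a mark of active promoters, at their start in KO and in KOLPS. Among 17 markers of other blood cells, 4 (Lck, Pax5, Klf1 and Kit) had one in both, and Cd3e, Gata1, Elane and Ncr1 had none. The KO and KOLPS CTCF lists still held 20151 and 11576 peaks, against 60537 in WT and 54020 in WTLPS, so CTCF peaks were fewer but not absent in the cells labelled KO. In a bulk population, loss of CTCF from a part of the cells and less CTCF in every cell cannot be told apart, and the same holds for every SMC1 value below. With a single list per state there was no replicate check of any difference. Intervals in parentheses are 95% intervals of the counts alone.

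Cohesin is a ring-shaped complex of SMC1, SMC3 and RAD21 that is loaded by NIPBL, extrudes loops of chromatin and is released by WAPL. CTCF bound to DNA halts extrusion, so cohesin normally collects at CTCF sites, and a further pool lies at active promoters and enhancers. LPS is sensed by TLR4, whose signal brings the NF-κB subunit p65 (RelA) into the nucleus, where it binds promoters and enhancers of cytokine, chemokine and feedback genes. PU.1, an ETS family factor, and C/EBP factors hold open the resting enhancers of myeloid cells.

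The DNA under the classes is shown first, because the KOLPS-only and KO-only summits differed most in the NF-κB and PU.1 motifs. Each sequence is the plus strand of GRCm38 (mm10), 101 bp centred on the SMC1 summit. In the first set, the capitals mark matches to GGGNNNTNCC or its reverse complement. It gives 4 KOLPS-only peaks of high fold that overlapped a KOLPS p65 peak and had an NF-κB match. They lie at chr11:83536311-83536411, outside genes and 5.85 kb from the start of the chemokine gene Ccl5, at chr8:94171732-94171832, 0.882 kb from the start of the metallothionein gene Mt2, at chr14:33288058-33288158, in an intron of Arhgap22, and at chr6:66849005-66849105, 38.6 kb from Vmn1r39.
Ccl5 site, KOLPS-only: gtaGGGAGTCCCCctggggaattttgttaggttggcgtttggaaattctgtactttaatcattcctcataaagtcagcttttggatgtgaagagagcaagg
Mt2 site, KOLPS-only: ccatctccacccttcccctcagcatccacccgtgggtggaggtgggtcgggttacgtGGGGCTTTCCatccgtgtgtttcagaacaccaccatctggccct
Arhgap22 site, KOLPS-only: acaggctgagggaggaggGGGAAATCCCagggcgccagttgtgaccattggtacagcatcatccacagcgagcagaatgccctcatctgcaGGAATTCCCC
Vmn1r39 site, KOLPS-only: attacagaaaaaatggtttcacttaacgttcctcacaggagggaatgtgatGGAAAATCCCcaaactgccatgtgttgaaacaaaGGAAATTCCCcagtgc

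The second set gives 4 KO-only peaks of high fold with a PU.1 match, and the capitals mark GNGGAAGT or its reverse complement. They lie in an intron of the kinase gene Prkce (chr17:86337201-86337301), 22.5 kb from Rnase2a (chr14:51278555-51278655), 6.38 kb from Zfp36l2 (chr17:84181517-84181617), whose product binds AU-rich mRNA, and in an intron of Tlr2 (chr3:83839590-83839690), the receptor of bacterial lipopeptides.
Prkce site, KO-only: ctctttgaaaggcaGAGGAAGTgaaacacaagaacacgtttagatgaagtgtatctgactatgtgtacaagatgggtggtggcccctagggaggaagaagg
Rnase2a site, KO-only: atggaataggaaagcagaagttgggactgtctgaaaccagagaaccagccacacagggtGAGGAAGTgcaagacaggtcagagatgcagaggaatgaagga
Zfp36l2 site, KO-only: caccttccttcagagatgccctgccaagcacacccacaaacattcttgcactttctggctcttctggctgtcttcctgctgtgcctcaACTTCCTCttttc
Tlr2 site, KO-only: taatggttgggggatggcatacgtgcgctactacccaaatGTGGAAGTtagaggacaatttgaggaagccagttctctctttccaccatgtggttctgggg

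The third set gives the sites with a KOLPS p65 peak beside Il12b, 9.88 kb from its start and KOLPS-only (chr11:44390135-44390235), and at the Il6 promoter, shared between KO and KOLPS (chr5:30012806-30012906). Neither window holds the NF-κB pattern. The capitals mark a C/EBP match (TTGCNNAA) in the first and an AP-1 match (TGANTCA) in the second.
Il12b site, KOLPS-only: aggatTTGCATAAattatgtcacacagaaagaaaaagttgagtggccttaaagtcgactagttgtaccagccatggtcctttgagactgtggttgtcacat
Il6 site, shared: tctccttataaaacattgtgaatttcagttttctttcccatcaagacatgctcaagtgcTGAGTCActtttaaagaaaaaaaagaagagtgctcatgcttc

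The first comparison asked how far SMC1 peaks changed with LPS in CTCF-KO cells. More KO than KOLPS peaks were unshared, in lists of unequal size. Of the KO peaks, 55.7% (55.1 to 56.2) had no KOLPS peak, and of the KOLPS peaks 21.1% (20.5 to 21.8) had no KO peak. With the KO list cut to the size of the KOLPS list by −log10 p, the shares were close to each other, 37.1% and 35.1%. The KOLPS list had 0.575 times as many peaks as the KO list. The KOLPS library also had lower coverage, 4.49 fragments over a background base against 5.34 in KO. After thinning of the KO peaks to the KOLPS coverage, 24462 of them were expected to remain, and the KOLPS list had 0.705 times that number. The same thinning left 92.7% of the shared KO peaks and 72.9% of the KO-only peaks (12156) above the threshold. Thinning lowers the coverage of the peaks of 1 list and leaves out the noise of a second library, so these are not the values expected without a change.

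SMC1 peaks of both unshared classes were weak. Fold enrichment, the fragment pileup at the summit divided by the local background, had a median of 3.94 in KO-only peaks and 4.00 in KOLPS-only peaks. It was 5.21 in the shared KO peaks and 4.73 in the shared KOLPS peaks. A −log10 p below 10, near the lowest value of about 7 in the deposited lists, was found for 66.6% of KO-only and 79.0% of KOLPS-only peaks, against 21.1% of shared KO peaks. The median width was 322 bp for KO-only, 252 bp for KOLPS-only and 530 bp for shared KO peaks.

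The share of KO peaks that was found again in KOLPS was compared over 10 groups of equal size by −log10 p. It was 13.4% (12.2 to 14.7) in the weakest group and 96.96% (96.3 to 97.5) in the strongest. In group 5 it was 32.3% (30.6 to 34.0). Thinning to the KOLPS coverage left 32.6% of the weakest group and 92.4% of group 5 above the threshold. Weak peaks were often not found again in CTCF-WT cells either, although the WTLPS coverage was higher than that of WT. Of the WT peaks, 31.3% (30.2 to 32.5) of the weakest group and 76.7% (75.7 to 77.7) of group 5 had a WTLPS peak. Each list was divided by its own −log10 p, so groups of the same number differ in strength. Group 5 spanned 9.63 to 10.63 in KO and 11.96 to 15.03 in WT. KO group 7, at 12.09 to 14.39, is closer in strength to WT group 5, and 51.6% of it was found again. KOLPS peaks were found again in KO more often at every strength, from 55.2% in the weakest group to 99.0% in the strongest. KOLPS-only summits lay a median of 9.41 kb from the nearest KO summit, and 9.71% of them lay within 1 kb. KO-only summits lay a median of 15.2 kb from the nearest KOLPS summit, and 5.06% lay within 1 kb.

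**Figure D1:**
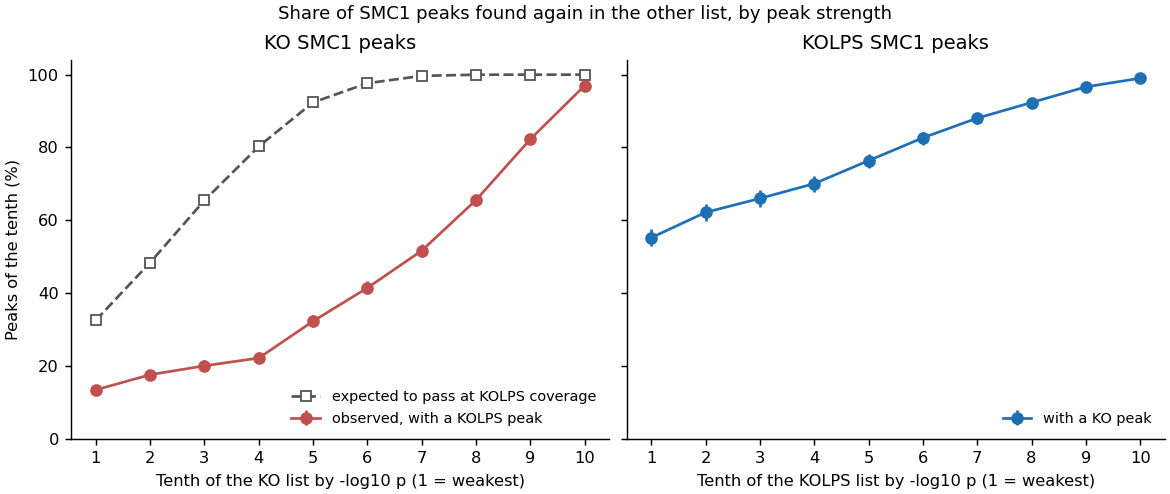
The y axis gives the percent of SMC1 peaks with a peak in the other list, for 10 groups of equal size of the KO list (left) and the KOLPS list (right), ordered on the x axis from the weakest to the strongest −log10 p. Bars are 95% Wilson intervals, and open squares give the percent of KO peaks above the threshold after thinning to the KOLPS coverage, with no noise of a second library, which lies above the observed values, 13.4% to 96.96%, in all 10 groups.

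In CTCF-WT cells the lists changed less with LPS. Of 63638 WT peaks, 25.5% (25.2 to 25.8) had no WTLPS peak, 30.2 percentage points (29.5 to 30.8) fewer than in CTCF-KO cells. Of 57354 WTLPS peaks, 18.1% (17.8 to 18.4) had no WT peak, 3.02 points (2.34 to 3.71) fewer than in CTCF-KO cells. Unlike in CTCF-KO cells, the library after LPS had the higher coverage in CTCF-WT cells, 5.76 against 5.40.

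The CTCF-WT lists come from separate libraries, so they give an independent view of the sites that changed in CTCF-KO cells. The sites of both unshared classes moved in the same direction there. For KO-only sites this is to be read beside the whole lists, which held 63638 peaks in WT and 57354 in WTLPS. KO-only sites had an SMC1 peak in WT in 62.3% and in WTLPS in 51.6% of cases, a difference of −10.7 points with LPS (−11.4 to −10.001). KOLPS-only sites had one in WT in 44.4% and in WTLPS in 51.9%, a difference of 7.49 points (5.78 to 9.19). Shared KO sites stood at 90.4% and 89.2%. The shares in WTLPS did not differ detectably between KOLPS-only and KO-only sites (0.339 points, −1.45 to 2.13), and in WT the difference was −17.9 points (−19.6 to −16.1). Among peaks of −log10 p below 10, a restriction chosen after seeing the data, the WT difference was −10.05 points (−12.1 to −8.01).

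Counted site by site, 649 KOLPS-only peaks (17.8%) had an SMC1 peak in WTLPS and not in WT, and 376 (10.3%) had the reverse. Among KO-only peaks, 1022 (6.13%) had SMC1 in WTLPS and not in WT, and 2809 (16.8%) had the reverse. The 2809 were out of 10390 KO-only peaks with SMC1 in WT, near the 25.5% of all WT peaks without a WTLPS peak. The 649 were out of 1892 KOLPS-only peaks with SMC1 in WTLPS, a larger share than the 18.1% of all WTLPS peaks without a WT peak. SMC1 was found in neither CTCF-WT state at 1377 KOLPS-only (37.8%), 5271 KO-only (31.6%) and 809 shared KO peaks (6.09%). A group of 967 KOLPS-only peaks (26.5%) and 3451 KO-only peaks (20.7%) had neither a CTCF-WT SMC1 peak nor H3K27ac in KO or KOLPS.

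The second comparison asked whether gained and lost SMC1 sites carried H3K27ac, the acetylation that marks active promoters and enhancers. More of the shared than of the KO-only peaks were acetylated. In KO, 69.2% of shared peaks (68.4 to 70.0) and 46.0% of KO-only peaks (45.3 to 46.8) overlapped an H3K27ac peak, a difference of 23.2 points (22.1 to 24.3). Shared peaks were also stronger, and the difference was 14.2 points among peaks of −log10 p of at least 10, 14.6 below 10 and 14.8 when 50% overlap was required. Here and below, all differences for peaks of −log10 p below 10 were added after seeing the data. KOLPS-only peaks, at which SMC1 was found only after LPS, had H3K27ac in KO in 34.2% (32.7 to 35.8), which differed from KO-only peaks by −11.8 points (−13.5 to −10.1), or −7.73 (−9.65 to −5.78) among peaks of −log10 p below 10.

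After LPS, KO-only sites had H3K27ac in 33.3%, a difference from before LPS of −12.7 points (−13.3 to −12.05). KOLPS-only sites had it in 34.7%, a difference of 0.494 points from before LPS (−0.774 to 1.76). In detail, H3K27ac was lost at 2652 and gained at 536 KO-only sites, and it was lost at 268 and gained at 286 KOLPS-only sites. The 2652 were out of 7677 KO-only sites with H3K27ac in KO, and the 268 out of 1247 KOLPS-only sites. Over the whole H3K27ac lists, 48.1% of KO peaks had no KOLPS peak and 37.8% of KOLPS peaks had no KO peak. Loss of H3K27ac was thus not particular to KO-only sites. Shared KO sites went from 69.2% to 62.4%. The KOLPS H3K27ac library had slightly more coverage than that of KO (0.801 against 0.748 fragments per base), and its list covered 32.4 Mb against 41.3 Mb.

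In CTCF-WT cells acetylation went up at KOLPS-only sites and down at KO-only sites. KOLPS-only sites had H3K27ac in 41.4% in WT and 46.9% in WTLPS, a difference of 5.54 points (4.18 to 6.89). KO-only sites had it in 48.9% and 41.7%, a difference of −7.17 points (−7.84 to −6.51). Over the whole H3K27ac lists of CTCF-WT cells, 45.7% of WT peaks had no WTLPS peak and 42.7% of WTLPS peaks had no WT peak. The order of the classes differed between the states, with KOLPS-only minus KO-only at −7.48 points in WT (−9.24 to −5.71) and 5.23 points in WTLPS (3.45 to 7.02).

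The third comparison set SMC1 beside p65. KOLPS-only SMC1 sites overlapped p65 more often than KO-only sites did. A KOLPS p65 peak lay at 148 KOLPS-only peaks, 4.06% (3.47 to 4.75), and at 70 KO-only peaks, 0.420% (0.332 to 0.53), a difference of 3.64 points (3.04 to 4.34). It was 8.26 points (6.93 to 9.77) among peaks of −log10 p of at least 10 and 2.13 (1.61 to 2.77) below 10. Shared KO peaks had the most, 1362 or 10.3% (9.75 to 10.8). The WTLPS p65 list gave the same order, with 10.4% of KOLPS-only, 2.67% of KO-only and 23.7% of shared KO peaks, and its difference was 14.4 points (12.5 to 16.5) at −log10 p of at least 10 against 7.72 over all peaks. Before LPS, p65 was rarely found at any class, 0.439% of KOLPS-only, 0.138% of KO-only and 3.14% of shared KO peaks in the KO list. The p65 peaks are few, so most KOLPS-only sites had none.

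Seen from p65, the binding that LPS induced in CTCF-KO cells fell mostly on sites that already had SMC1. The KOLPS p65 list had 1752 peaks, of which 1351 had no KO p65 peak. Of these 1351, 77.6% (75.3 to 79.7) lay at SMC1 in both KO and KOLPS, 10.7% (9.19 to 12.5) at SMC1 in KOLPS only, 4.29% (3.34 to 5.51) at SMC1 in KO only and 7.40% at neither. The 401 KOLPS p65 peaks with a KO p65 peak lay at SMC1 in both states in 91.5% and at SMC1 in KOLPS only in 2.99% (1.72 to 5.16). The 4223 WTLPS p65 peaks without a KOLPS p65 peak lay at SMC1 in both CTCF-KO states in 50.4% and at neither in 32.8% (31.4 to 34.2), against 85.4% and 4.27% of the 1242 with one.

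Of the 148 KOLPS-only sites with p65, 137 had it in KOLPS and not in KO, and 111 had H3K27ac in KOLPS. Among the WTLPS-only SMC1 peaks of CTCF-WT cells, 7.92% had WTLPS p65, 3.86 points (3.00 to 4.66) above the value for KOLPS-only peaks and KOLPS p65. The p65 lists differ in size, 5465 peaks in WTLPS against 1752 in KOLPS, and the part of this in the difference was not tested.

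**Figure D2:**
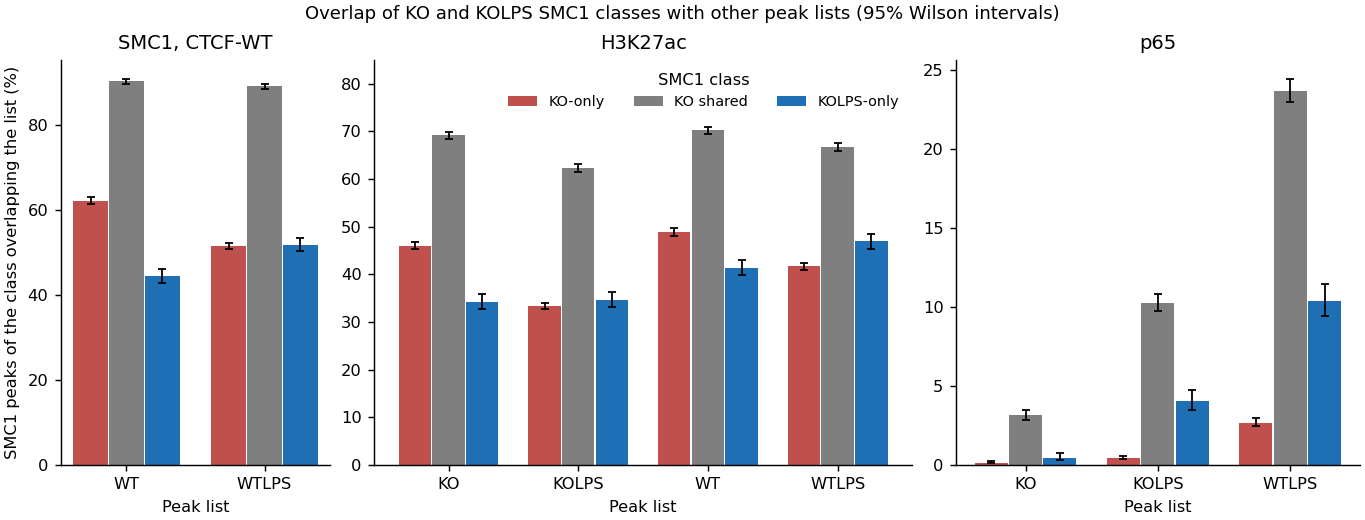
Bars give the percent (y axis) of KO-only, shared KO and KOLPS-only SMC1 peaks that overlapped the peak list named on the x axis, with 95% Wilson intervals; the p65 panel has its own scale, up to about 25%. KOLPS-only bars are higher in WTLPS than in WT for SMC1 (51.9% against 44.4%) and H3K27ac (46.9% against 41.4%), KO-only bars are lower, and the KOLPS p65 bar of KOLPS-only peaks (4.06%) stands above that of KO-only peaks (0.420%).

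The sequence at the summits differed between the classes. Motifs were searched on both strands in the 101 bp around each summit and in windows of the same length 1 kb to either side, and a window could count for several motifs. The NF-κB pattern GGGNNNTNCC lay in 8.45% (7.59 to 9.40) of KOLPS-only windows and in 3.86% (3.58 to 4.16) of KO-only windows, a difference of 4.59 points (3.68 to 5.58). It was 7.42 points (5.86 to 9.13) among peaks of −log10 p of at least 10 and 3.51 (2.54 to 4.58) below 10. With 100 bp to either side of the summit it was 8.21. All motif differences by −log10 p, here and below, were added after seeing the data. In the neighbouring windows it was found in 3.13% and 3.43%, so KO-only summits were close to their neighbourhood. Shared KO summits had it in 8.56%. The motif was not limited to sites with a p65 peak: among KOLPS-only peaks it lay in 20.3% (14.6 to 27.5) of the 148 with KOLPS p65 and in 7.95% (7.099 to 8.89) of the 3497 without.

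The PU.1 pattern GNGGAAGT showed the reverse order. It lay in 7.66% (7.27 to 8.07) of KO-only and 3.59% (3.04 to 4.25) of KOLPS-only windows, with 1.47% and 1.37% in the neighbouring windows. The difference for KOLPS-only minus KO-only was −4.07 points (−4.76 to −3.30). It was −4.38 among peaks of −log10 p of at least 10 and −2.77 (−3.53 to −1.93) below 10. C/EBP (TTGCNNAA) was also more frequent at KO-only summits, 6.72% against 4.75%, a difference of −1.97 points that was −1.21 below a −log10 p of 10 and −3.40 with 100 bp to either side, and at KOLPS-only summits it was close to its neighbourhood of 4.57%. AP-1 (TGANTCA), bound by FOS and JUN family dimers, lay in 7.87% of KOLPS-only and 5.89% of KO-only windows, a difference of 1.98 points (1.07 to 2.96) over all peaks. At −log10 p of at least 10 the AP-1 difference was 1.38 points with an interval that included zero (−0.00185 to 2.93). The interferon response pattern GAAANNGAAA differed by 0.117 points (−0.341 to 0.658) and the CTCF core CCANNAGNNGGC by 0.214 points (−0.293 to 0.804), and neither difference was detectable. The STAT pattern TTCNNNGAA lay in 4.25% of KOLPS-only and 3.36% of KO-only windows, near the 3.61% and 3.10% of their neighbourhoods, and below a −log10 p of 10 the interval of the difference included zero. The base composition was similar, with 41.7% G and C in KOLPS-only and 42.5% in KO-only windows, against 46.2% at shared KO summits.

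**Figure D3:**
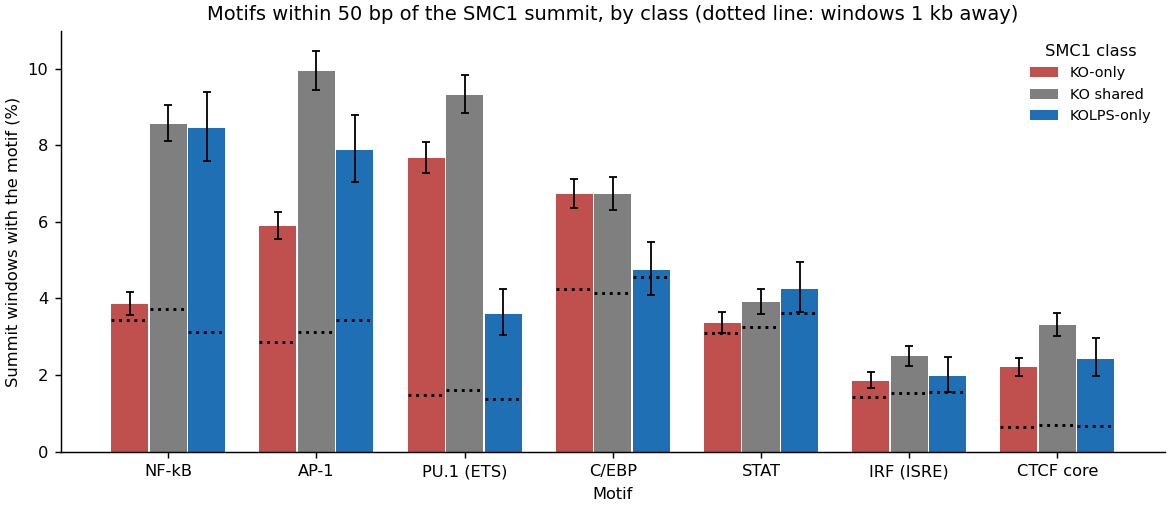
The y axis gives the percent of 101 bp windows around KO-only, shared KO and KOLPS-only SMC1 summits that hold each motif on the x axis, with 95% Wilson intervals, and dotted lines give windows 1 kb away. NF-κB stands at 8.45% in KOLPS-only against 3.86% in KO-only windows, and PU.1 at 3.59% against 7.66%.

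Of the other marks, H3K4me1, a mark of enhancers in any state, lay in KO at 81.4% of shared KO, 71.5% of KO-only and 58.2% of KOLPS-only peaks, and the last differed from KO-only peaks by −13.3 points (−15.03 to −11.5). Residual CTCF in KO lay at 16.1%, 10.06% and 10.97%, and the difference between KOLPS-only and KO-only was 0.916 points (−0.164 to 2.06). STAT5, the factor activated by GM-CSF, was mapped in cells without LPS that received GM-CSF again for 15 min, unlike the SMC1 cells. It lay in KO at 18.9%, 5.11% and 6.80%. H3K27me3, the Polycomb mark, was rare at 3.53%, 3.74% and 4.53%.

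Promoters, within 2.5 kb of a gene start, held 26.3% of KO-only, 27.8% of KOLPS-only and 27.7% of shared KO peaks, and the difference between KOLPS-only and KO-only was 1.51 points (−0.0737 to 3.13). Introns held 39.2% of KO-only and 35.7% of KOLPS-only peaks. Away from promoters, 50.4% of shared KO peaks, 30.4% of KO-only and 24.3% of KOLPS-only peaks had H3K27ac in KO or KOLPS. A further 5.34%, 14.2% and 21.8% were distal and had neither H3K27ac nor H3K4me1.

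SMC1 that was present in both states was next compared by its fold. Merging overlapping peaks gave 13183 shared sites. The median log2 ratio of KOLPS to KO fold was −0.10, and each site was read relative to it. At least 1.5 times above the median ratio lay 553 sites (4.19%), and at least 1.5 times below it 644 (4.89%). Of the 1003 shared sites with KOLPS p65 and no KO p65, 12.9% (10.9 to 15.1) were above and 2.29% below. Of the 11821 without KOLPS p65, 3.23% (2.93 to 3.57) were above and 5.21% below, so the share above differed by 9.63 points (7.67 to 11.9). The median relative log2 ratio was 0.17 in the first group and −0.02 in the second. The 359 shared sites with p65 in both KO and KOLPS had 11.7% (8.77 to 15.4) above and 1.39% below, with a median of 0.14. The higher fold was therefore not particular to sites where p65 appeared with LPS.

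Other changes at shared sites went with higher or lower SMC1 fold too. The 569 shared sites where H3K27ac was found in KOLPS and not in KO had 8.96% above and 2.99% below, and the 1470 with the reverse had 2.31% above and 8.10% below. Of the 457 shared sites with SMC1 in WTLPS and not in WT, 10.9% (8.40 to 14.1) were above and 0.438% below. The 2090 with p65 in WTLPS and not in KOLPS had 6.03% above and 6.56% below.

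The strongest KOLPS-only peaks were a mixture. The highest fold, 66.6, belonged to a peak of 174 bp in an intron of Pcca (chr14:122568945-122569118), which was found in 4 of the 30 lists, WT SMC1 among them. The next were 173 bp and 177 bp wide, 57.8 kb from Prlhr (chr19:60410483-60410655, fold 12.01) and at chr19:37803804-37803980 (fold 11.6), more than 100 kb from any protein-coding gene start. The 5 narrowest of the 10, 173 to 184 bp wide, were present in 2 to 7 of the 30 lists. A peak of fold 8.55 lay in an intron of Crlf2, the thymic stromal lymphopoietin receptor subunit, 1.49 kb from its start (chr5:109556955-109557681), with KOLPS p65 and with SMC1 in WTLPS and not in WT. A peak of fold 7.83 lay 0.155 kb from the start of Socs1, a feedback inhibitor of cytokine signalling (chr16:10785039-10785835), with H3K27ac in all 4 states and SMC1 in WT and WTLPS. Another of fold 7.83 lay 10.3 kb from Esr1 with p65 in KO, KOLPS and WTLPS (chr10:4601322-4602159). The remaining 4 lay in an intron of Oxr1 (fold 8.74), on chromosome 1 more than 100 kb from any protein-coding gene start (8.01), 38.5 kb from Ugt3a2 (7.098) and in an intron of Igf2bp2 (7.098).

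The 5 KOLPS-only peaks of highest fold with KOLPS p65 lay near Crlf2, Esr1, Usp28, Anxa2 and Trmt11. The one near Usp28 had a fold of 6.92 at 0.28 kb from the start, with KOLPS H3K27ac and no KO H3K27ac. The one in an intron of Anxa2, the gene of the membrane-binding annexin A2, had a fold of 6.92 and H3K27ac in both states. The one in an intron of Trmt11 had a fold of 6.55 and was found in WTLPS and not WT SMC1.

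The 10 KO-only peaks of highest fold ranged from 8.05 to 11.2, and 9 of them had a WT SMC1 peak. They lay in introns of Adgrl3 (fold 11.2), Cyp1a1 (9.15, nearest start Edc3), Fam107b (8.99), Prkce (8.69) and Pag1 (8.36, chr3:9825690-9826475), the last an adaptor that restrains Src family kinases. Others lay 28.0 kb from the kinase gene Nek6 (9.13), 46.2 kb from B4galt6 (8.20), 1.62 kb from the signal regulatory protein gene Sirpb1a (8.05), and more than 100 kb from any protein-coding gene start on chromosome 8 (8.20) and chromosome 12 (8.20). The last was found in 13 of 30 lists but in neither CTCF-WT SMC1 list. No KO-only peak among these 10 overlapped p65 in KO, KOLPS or WTLPS.

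The strongest shared KOLPS peaks did not sit at known regulatory genes. Of the 5 of highest fold, 4 lay on chromosome Y, with folds from 59.9 to 98.1 in KOLPS and from 54.6 to 89.8 in KO. The other lay in an intron of Cpeb4 with folds of 96.8 and 83.5. They were present in 13 to 22 of the 30 lists, including CTCF and H3K27ac, so they were not particular to SMC1. Whether they reflect cohesin binding or a signal common to many libraries was not tested.

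Among 21938 protein-coding genes, 2266 were the nearest gene, within 100 kb, to at least 1 KOLPS-only peak and 6653 to at least 1 KO-only peak. The genes with the most KOLPS-only peaks were Mrpl39 and Tnfaip3 with 10 each, Rgs1 with 9, and Pik3r1 and Tnfrsf11a with 6 each. Tnfaip3 encodes A20, the inhibitor that ends NF-κB signalling, and it also had 8 KO-only and 15 shared KOLPS peaks. Rgs1, a regulator of chemokine receptor signalling, had 5 KO-only peaks. Tnfrsf11a encodes RANK, a TNF receptor family member that activates NF-κB, and Pik3r1 the regulatory subunit of PI3 kinase, and each had 3 KO-only peaks. Mrpl39, a mitochondrial ribosomal protein gene, had 1.

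The genes with the most KO-only peaks were Ptprc with 16, and Irf2, Kcna3, Ubl3 and Zfp36l2 with 15 each. Ptprc encodes the leukocyte phosphatase CD45 and had 2 KOLPS-only peaks. Irf2, which antagonises interferon-induced transcription, and Zfp36l2 had none, Kcna3, a potassium channel, had 2, and Ubl3 had 1. Each of the 5 also had between 5 and 12 shared KO peaks.

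For groups of genes, merged SMC1 sites within 50 kb of the gene start were counted. Near any protein-coding gene lay 23426 sites, of which 10.1% were KOLPS-only and 50% KO-only. At least 1 KOLPS-only site lay near 18.8% of the genes and at least 1 KO-only site near 49.1%. Several lists of LPS-response genes had lower shares of KO-only sites. Near 17 LPS-induced cytokine genes, 25 of 147 sites were KOLPS-only (17.01%, 11.8 to 23.9) and 49 were KO-only (33.3%, 26.2 to 41.3). Near 21 genes of NF-κB subunits and feedback inhibitors, 31 of 204 were KOLPS-only (15.2%, 10.9 to 20.8) and 62 KO-only (30.4%, 24.5 to 37.0). Near 15 costimulatory and checkpoint ligand genes, 18 of 150 were KOLPS-only and 39 KO-only (26.0%, 19.6 to 33.6), the lowest share of KO-only sites among the 13 lists.

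Chemokine and receptor genes had 32.8% KO-only sites (26.6 to 39.7) and 10.9% KOLPS-only, AP-1 and immediate early genes 35.3% and 13.7%, and LPS-induced enzyme genes 37.8% and 13.4%. The enzyme list also held Aldh1a2 and Chst3, which the paper reports as raised by CTCF depletion. Aldh1a2 had 7 of the 31 KO-only sites of that list. Interferon-stimulated genes had 46.9% KO-only and 15.3% KOLPS-only (9.501 to 23.7). Lists that are not part of the acute response stood near the share of all genes for KO-only sites, with 48.7% for dendritic and myeloid transcription factors, 49.2% for myeloid receptors and lectins, 47.3% for antigen presentation, 45.2% for TLR receptors and adaptors, 53.6% for cohesin subunits and regulators and 51.6% for ribosomal proteins. KOLPS-only sites near these 6 lists made up 12.04%, 5.59%, 6.20%, 7.26%, 14.3% and 9.02%. Genes of one list often lie in clusters and share sites, and each site was counted once per list.

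**Figure D4:**
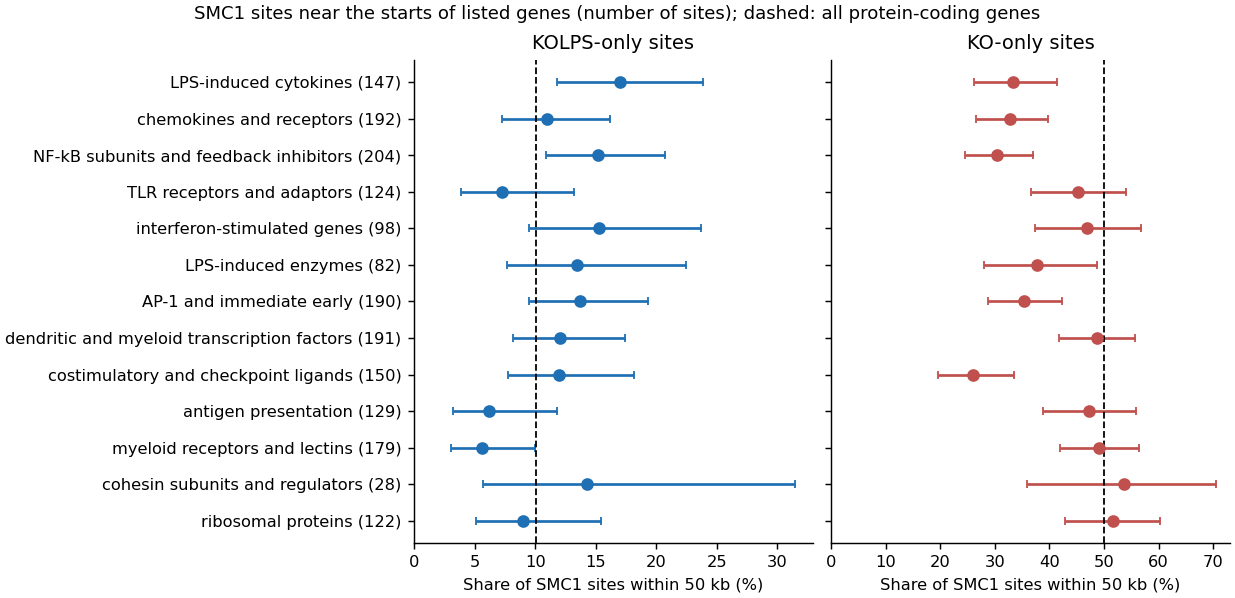
Points give, on the x axes, the percent of SMC1 sites within 50 kb of the listed genes' starts that were KOLPS-only (left) and KO-only (right), with 95% Wilson intervals and the number of sites in parentheses on the y axis. The dashed lines mark all protein-coding genes, 10.1% and 50%, and LPS-induced cytokines (17.01% and 33.3%) and costimulatory and checkpoint ligands (26.0% KO-only) lie away from them.

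Single genes show what these counts hold. A site within 50 kb of several gene starts was counted for each of these genes. Around Il6, which encodes the inflammatory cytokine interleukin-6, there were 5 KO and 6 KOLPS peaks, with 4 shared, 2 KOLPS-only and 1 KO-only site. Positions are given from the gene start, negative upstream. The shared site at the promoter, at −0.288 kb, had a fold of 6.15 in KO and 10.6 in KOLPS and carried p65 in KOLPS and not in KO. A shared site at −39.9 kb had 3.94 in KO and 5.28 in KOLPS. KOLPS-only sites lay at 1.45 kb and at −43.2 kb, each with a fold of 3.64, and the KO-only site lay at 22.97 kb with 3.63. CTCF-WT cells had 8 SMC1 peaks within 50 kb of Il6 before and 15 after LPS.

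Around Il12b, the p40 subunit of interleukins 12 and 23, there were 5 shared and 1 KOLPS-only site and no KO-only site. The KOLPS-only site at −9.88 kb (fold 4.71) was the one with KOLPS p65, and it had SMC1 in WTLPS and not in WT and no H3K27ac peak in KO or KOLPS. The shared site at −17.6 kb had a fold of 7.57 in KO and 11.8 in KOLPS, and that at 37.9 kb had 8.36 and 4.37. Il12a, the p35 subunit, had 1 shared site (4.26 in KO, 6.92 in KOLPS) and 1 KOLPS-only site 18.8 kb downstream (3.64) where H3K27ac was found in KOLPS and not in KO. Both sites overlapped a CTCF peak in KO or KOLPS, and the shared site had no H3K27ac in either state.

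Tnf, encoding tumour necrosis factor, lay among 25 sites, 7 shared, 3 KOLPS-only and 15 KO-only. The promoter site had a fold of 8.52 in KO and 11.8 in KOLPS, and the site 3.37 kb downstream had 3.79 and 7.83. Il1b, which encodes interleukin-1β, had 10 shared, 1 KOLPS-only and 6 KO-only sites, and its promoter site had 6.63 and 6.19. Cxcl10, an interferon-induced chemokine gene, had 8 shared, 1 KOLPS-only and 1 KO-only site, and the promoter site, with p65 in KOLPS and not in KO, had 7.1002 and 6.01. Il27 had 6 shared, 5 KOLPS-only and 2 KO-only sites, and Il1a had 11, 2 and 5.

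Among the NF-κB genes, Traf1, a signalling adaptor, had 5 KOLPS-only, 2 KO-only and 2 shared sites, so that its KO list had 4 peaks and its KOLPS list 7. KOLPS-only sites lay at −0.502 kb (fold 4.73) and at its start (3.64), and the shared site at −5.49 kb, with p65 in KOLPS and not in KO, had 6.47 in KO and 8.37 in KOLPS. Tnfaip3 had 6 KOLPS-only and 6 KO-only sites beside 9 shared ones, among them the promoter (15.1 and 16.4) and a site at −30.8 kb (4.61 and 9.10). Tnip1, whose product binds A20, had 3 KOLPS-only and 5 KO-only sites, and Bcl3, an IκB family member, 0 and 6. Among transcription factors, Etv6 had 4 KOLPS-only and 6 KO-only sites, Irf8 2 and 9, Runx1 1 and 8, and Runx2 0 and 8. Ch25h, the cholesterol 25-hydroxylase, had 3 and 9.

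The genes named here had the most unshared sites of their lists, so their counts are a description, and the shares of all genes were 50% KO-only and 10.1% KOLPS-only. Ccr2, the receptor by which monocytes follow CCL2, had 22 KO peaks and 8 KOLPS peaks, 14 KO-only sites and no KOLPS-only site. Its shared site at 1.27 kb had a fold of 7.42 in KO and 5.10 in KOLPS. Ccr1, another chemokine receptor gene, had 10 KO-only and 2 KOLPS-only sites. Fcgr2b, the inhibitory Fc receptor, had 12 KO-only and no KOLPS-only site, and the lectin genes Clec9a, Clec4n and Clec4d had 10, 9 and 8 KO-only sites with 1, 0 and 1 KOLPS-only. Clec4n and Clec4d lie close together, and all 8 KO-only sites of Clec4d were among the 9 of Clec4n. Of the MHC class II genes, H2-Aa had 11 KO-only and 1 KOLPS-only site of 22 and H2-Eb1 10 and 1 of 21, near the share of KO-only sites of all genes. The KO-only and KOLPS-only sites of H2-Eb1 were all among those of H2-Aa. Batf3 had 13 and 0 and Pdcd1lg2, which encodes PD-L2, 12 and 1. At Igtp, an interferon-induced GTPase gene, all 6 sites were KO-only, with folds from 3.63 to 4.89, and 3 of them had SMC1 in WTLPS.

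**Figure D5:**
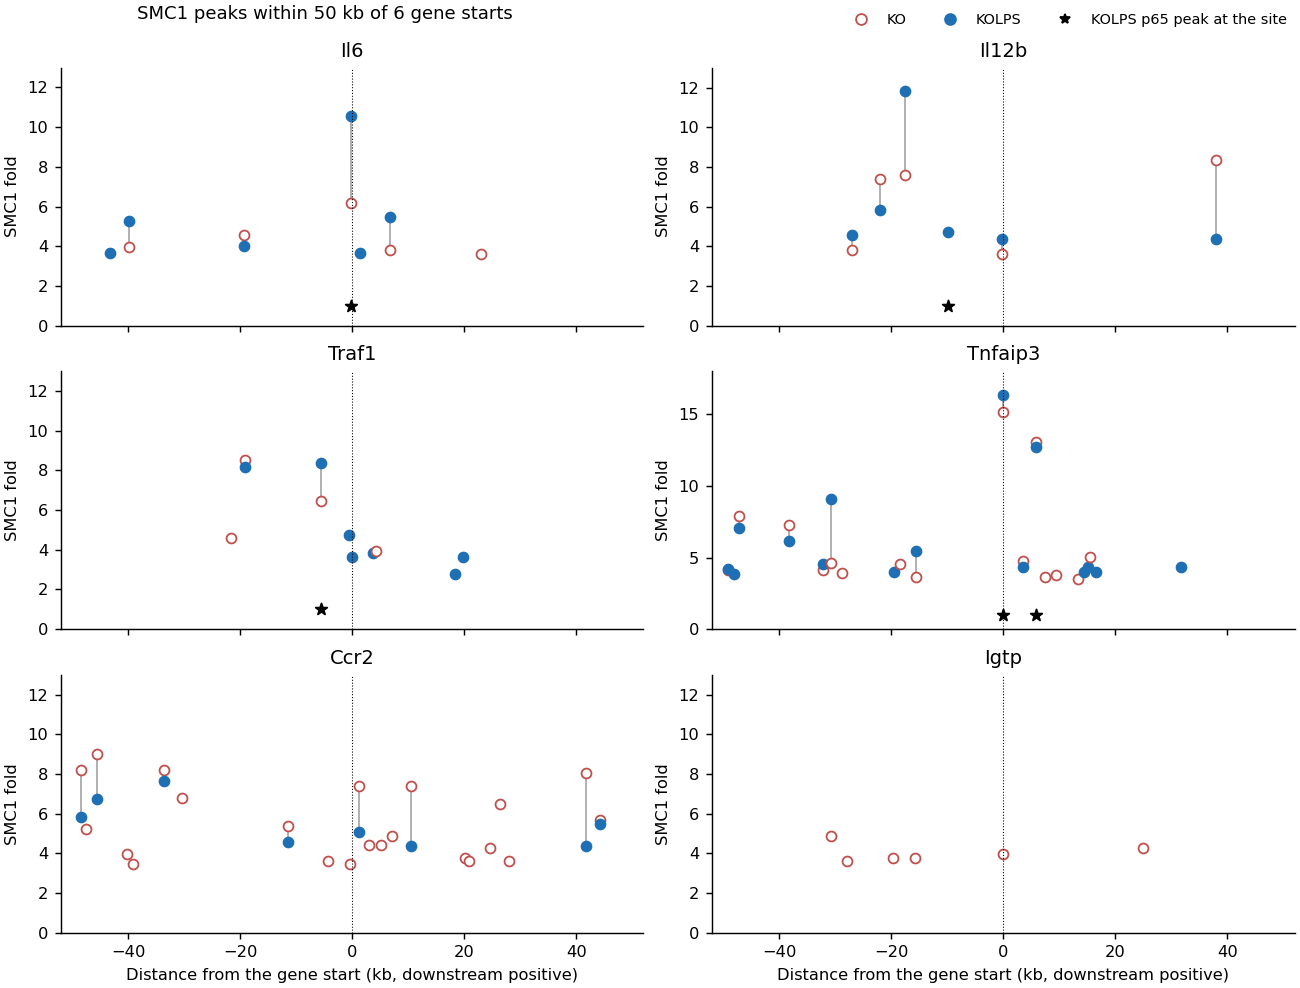
Each panel gives the SMC1 fold (y axis, own scale for Tnfaip3) of the peaks within 50 kb of a gene start (x axis, kb, downstream positive), open circles for KO and filled circles for KOLPS, with lines that join shared sites and stars where a KOLPS p65 peak lay. Filled circles without an open partner are KOLPS-only sites, 5 at Traf1 and 2 at Il6, and Igtp has 6 open circles only.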

How the data were processed

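SMC1, p65, CTCF, STAT5 and histone marks were profiled by ChIP-seq with tagmentation in CTCF-WT and CTCF-KO BMDCs, with and without LPS, and 1 peak list per antibody and state was used. The authors trimmed paired reads, aligned them to mm10, removed duplicates and called peaks with MACS2. Processing notes of the submitters name BWA 0.7.12, Picard 1.77, MACS2 2.1.2 and deepTools 3.1.3. The deposited lists hold fold enrichment, the ratio at the summit of the pileup to the background expected there, and −log10 p and −log10 q of each peak, all computed by the authors within a library. The SMC1 lists keep peaks of −log10 p above 7. Per the methods, 2 biological replicates were made and peaks were called for each sample and replicate, while the study's general statement on replication says that reproducible replicates were combined. Which of these a deposited list holds is not stated for the list itself. Such values are not scaled between libraries, so weaker peaks are lost from a shallower library.

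Coverage was recovered from fold and p of peaks with −log10 p below 25, taking the background fragments per base that gave whole fragments within 0.002, and KO peaks were thinned to the KOLPS coverage. Overlap was 1 bp. Promoters were within 2.5 kb of GENCODE gene starts, and gene windows were 50 kb. Shares have 95% Wilson intervals, differences Newcombe intervals, and differences of the same sites before and after LPS an interval from the sites that changed (Bonett-Price). Peaks are not replicates, so no p-value was computed. Scripts were tested on simulated data. Python 3.11.15, numpy 2.4.6, pandas 2.3.3, scipy 1.17.1, matplotlib 3.10.9 and pysam 0.24.0 were used. Named genes were those at the 10 KOLPS-only, 10 KO-only and 5 shared peaks of highest fold and the 5 KOLPS-only peaks of highest fold with p65, the 5 genes with most peaks of each unshared class, up to 4 genes per list with most unshared sites, and Il6, Il12a, Il12b, Tnf, Il1b and Cxcl10. The members and gene lists were chosen with earlier results of these data known. Alternatives covered overlap, peak strength, list size, coverage, windows, promoter definition and the relative fold.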

Additional observations from a re-analysis of the deposited data

Results flagged for a closer look

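Around 6 gene lists the number of SMC1 peaks within 50 kb was higher in WTLPS than in WT and lower in KOLPS than in KO. Every gene list had fewer peaks in KOLPS than in KO, so only the rise in CTCF-WT cells set these 6 apart. The difference between CTCF-WT and CTCF-KO cells was not tested, because each state had 1 list. Over all protein-coding genes the peaks went from 44617 to 40037 in CTCF-WT cells and from 21127 to 11996 in CTCF-KO cells. The latter is a change of −43.2%, and near each of the 6 lists the percent change in CTCF-KO cells was smaller. It was also smaller near some other lists, such as −18.7% near AP-1 and immediate early genes. Near LPS-induced cytokine genes, 183 peaks in WT became 207 in WTLPS, and in CTCF-KO cells the 122 peaks fell by 20 to 102. Near chemokine and receptor genes the counts were 229 and 233 in CTCF-WT cells, and in CTCF-KO cells 175 peaks fell by 39 to 136. Near NF-κB subunits and feedback inhibitors they were 258 and 267, and 176 peaks fell by 27 to 149. Near interferon-stimulated genes they were 159 and 175, and 84 peaks fell by 29 to 55. Near LPS-induced enzymes they were 105 and 123, and 71 peaks fell by 19 to 52. Near costimulatory and checkpoint ligands they were 182 and 212, and 136 peaks fell by 22 to 114. The KOLPS library had lower coverage than that of KO, and the WTLPS library higher coverage than that of WT, and their part in these counts was not tested.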

How the results depend on the processing

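Of 171 alternative values, 38 of them chosen after seeing the data, 141 were counted as unchanged. Unchanged shares stayed within the main interval. Unchanged differences kept their direction and their side of the interval's zero, or had intervals that included zero in both settings. Some of the latter changed direction, such as KOLPS-only minus KO-only for promoters with all transcript starts (−0.250 points) and for the CTCF core at −log10 p of at least 10 (−0.340). No difference that excluded zero changed direction. KO peaks without a KOLPS peak made up 65.02% when 50% overlap was required, 53.2% within 500 bp and 37.1% when the KO list was cut to the KOLPS size. KOLPS peaks without a KO peak made up 24.3%, 19.3% and 35.1% under the same settings and 19.0% at a −log10 p of at least 10. The KOLPS to KO count ratio was 0.552 at that strength and 0.705 after thinning. KOLPS-only minus KO-only for KOLPS H3K27ac excluded zero at 50% overlap (1.773 points), at −log10 p of at least 10 (5.30) and, added after seeing the data, below 10 (2.03). For WTLPS SMC1 it did so at 50% overlap (2.198) and, added later, below 10 (5.09). The promoter difference was 1.79 points with 1 kb, and for shared KO minus KO-only 0.892 with all transcript starts, which included zero. AP-1 at −log10 p of at least 10 (1.38) and STAT below 10 (0.604), both added later, included zero. At −log10 p of at least 10, sites near all genes were 9.40% KOLPS-only and 51.7% KO-only, and those near myeloid receptors 1.71% and 59.8%. With 20 kb, KO-only sites were 23.5% for cytokines and 72.7% for cohesin, and KOLPS-only sites 23.9% for interferon-stimulated genes and 4.76% for ribosomal proteins. With 100 kb, KO-only sites were 34.1% for costimulatory ligands. At a relative fold of 2, 0.311% of shared sites were higher and 0.220% lower, and the difference in lower sites with LPS-induced p65 was −0.245 points. The cause of these changes was not tested. No paired analysis was possible because the labels give 1 list per state and no replicate numbers. Most peaks of both unshared classes lay near the threshold, where presence in a list is least certain.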

Other observations

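H3K4me1 and H3K4me3 were also less often found at SMC1 sites after LPS in CTCF-KO cells, in every class. H3K4me1 lay at 71.5% of KO-only sites in KO and 59.97% in KOLPS, and at 58.2% and 45.3% of KOLPS-only sites. In CTCF-WT cells the same sites had 72.4% in WT and 73.0% in WTLPS for KO-only, and 57.2% and 57.8% for KOLPS-only. By the study's reporting summary, the KOLPS H3K4me1 library had fewer uniquely mapped reads than that of KO. The WTLPS H3K4me1 library had more than that of WT, and the H3K4me3 libraries differed little. The part of depth in these shares was not tested. H3K4me3 at shared KO sites lay at 32.0% in KO and 25.6% in KOLPS, against 33.2% in WT and 30.3% in WTLPS. CTCF peaks in WT lay at 22.5% of shared KO sites, 17.01% of KO-only and 16.3% of KOLPS-only sites, and the last pair differed by −0.688 points (−1.99 to 0.670).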
